A study of Mus musculus with 2 samples.

Results

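The E2F family is a group of transcription factors named after a cellular factor that binds the adenovirus E2 promoter. Its genes E2f1 to E2f8 were read in single cells of mouse thymus from 2 libraries of the genotype E2F_M11. The 8 members were chosen by name and were found among 32285 features in both libraries. In E2F_M11, 2 E2F binding sites in the proximal promoter of Foxn1 were removed with CRISPR-Cas9, and both libraries carry this deletion. Foxn1 is the gene on which the differentiation of thymic epithelium depends, and the study asks how E2F proteins bear on thymic size. The material was thymic stroma depleted of CD45+ cells on magnetic beads, so the thymocytes described are those that the depletion left. The labels give neither the age nor the number of animals, nor whether each library was made from its own mice. The p-values therefore measure the spread between these libraries, which may be technical. Wild-type stroma was not analysed here, and no value measures an effect of the deletion. Fewer cells of a type and less RNA per cell cannot be told apart in sums over cells, except where shares of cells are given.

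E2F proteins bind DNA near genes for DNA replication and mitosis. E2F1, E2F2 and E2F3 are known as activators of the G1 to S step and are held in check by the retinoblastoma protein. E2F4 and E2F5 bind the related pocket proteins p107 and p130 and act mainly as repressors in resting cells. E2F6 represses without a pocket protein, together with Polycomb proteins. E2F7 and E2F8 are atypical repressors that bind DNA without a DP partner and shut E2F targets off as cells pass through S phase. E2f7 and E2f8 are themselves known E2F targets, as is E2f1.

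Library 1 held 41075328 unique molecular identifiers (UMIs, each a counted RNA molecule) in 5110 barcodes and library 2 held 42583831 in 19163 barcodes. After filtering, 3588 cells of library 1 and 8186 of library 2 were kept, and 13 barcode sequences occurred among the kept cells of both. Cells were assigned to classes by marker genes, and barcodes with markers of several lineages were set aside. These were 8.25% of kept cells in library 1 and 53.2% in library 2, which stands apart in this respect. Its kept cells had a median of 1874 UMIs, against 8727 in library 1, and its gated cells 3303, against 9042. The classes are gates rather than annotated types, and several thresholds were loosened until dividing thymocytes, dividing Aire mTEC and cTEC reached 20 cells in both libraries. At least 7 of 8 markers of mural cells and every marker of the other named classes were detected in each library. The same markers set the gates, so their detection is no independent check of the classes.

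Dividing cells were those with at least 3 UMIs from at least 2 of 28 S-phase and G2/M genes, at 10 or more per 10000 UMIs. No E2f gene is among them. Cells with at most 1 such UMI, or under 5 per 10000, were called non-dividing, and those in between were left out. Dividing cells were numerous enough in both libraries in 3 classes. Dividing thymocytes numbered 24 in library 1 and 1059 in library 2, and non-dividing thymocytes 87 and 426. Dividing Aire mTEC numbered 57 and 23, and non-dividing ones 255 and 123. This gate of medullary thymic epithelial cells is named after the autoimmune regulator Aire. It sums 6 markers (Aire, Fezf2, Cd80, Cd40, Ccl22 and Ubd), so a cell need not hold an Aire UMI. Dividing fibroblasts numbered 33 and 44, and non-dividing ones 1651 and 837.

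Of the 5 members called higher in dividing cells of at least 1 class, the promoter windows of the 4 that hold an E2F-type motif are shown, chosen for that motif. The window of the fifth, E2f1, holds none. The sequences are from RefSeq on GRCm38.p6 and run from 250 bases before to 50 bases after an annotated transcript start. Capitals mark matches on either strand to TTCCCGC, to the variant TTGGCGC, to the variant TTCGCGC or to the variant TTGCCGC, and no matches overlap.
E2f2, chr4:136172024-136172323, plus strand: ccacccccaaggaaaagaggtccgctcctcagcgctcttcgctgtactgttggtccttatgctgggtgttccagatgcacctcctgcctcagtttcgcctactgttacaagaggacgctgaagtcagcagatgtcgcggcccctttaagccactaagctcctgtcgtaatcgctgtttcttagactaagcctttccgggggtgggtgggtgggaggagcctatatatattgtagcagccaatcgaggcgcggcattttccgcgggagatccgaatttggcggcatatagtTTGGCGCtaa
E2f3, chr13:29986014-29986313, minus strand: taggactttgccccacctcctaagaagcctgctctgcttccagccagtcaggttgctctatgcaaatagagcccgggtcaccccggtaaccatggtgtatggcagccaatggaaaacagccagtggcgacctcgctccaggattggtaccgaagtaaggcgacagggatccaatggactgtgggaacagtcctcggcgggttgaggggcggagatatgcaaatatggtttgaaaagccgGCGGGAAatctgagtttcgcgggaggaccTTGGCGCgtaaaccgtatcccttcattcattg
E2f7, chr10:110745189-110745488, plus strand: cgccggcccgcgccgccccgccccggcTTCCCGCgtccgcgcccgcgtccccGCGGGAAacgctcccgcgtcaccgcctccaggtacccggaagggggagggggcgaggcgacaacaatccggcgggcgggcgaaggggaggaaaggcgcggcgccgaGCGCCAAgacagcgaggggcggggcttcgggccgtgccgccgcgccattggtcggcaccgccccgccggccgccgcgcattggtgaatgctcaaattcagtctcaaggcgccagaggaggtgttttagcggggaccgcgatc
E2f8, chr7:48881547-48881846, minus strand: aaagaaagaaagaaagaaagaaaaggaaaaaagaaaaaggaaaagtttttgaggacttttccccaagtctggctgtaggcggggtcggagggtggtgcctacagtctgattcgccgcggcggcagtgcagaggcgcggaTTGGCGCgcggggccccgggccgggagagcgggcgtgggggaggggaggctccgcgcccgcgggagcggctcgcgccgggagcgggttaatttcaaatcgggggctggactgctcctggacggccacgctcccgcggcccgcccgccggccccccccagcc
Positions are counted from 1 at the transcript start, with negative positions before it. The E2f7 window held 3 matches, which began at −223, −198 and −92. The E2f3 window held 2, at −11 and 19. The E2f2 window held 1 match at 41 and the E2f8 window 1 match at −111. At least 1 match was present in 9.57% of the 32851 windows of the table, and at least 2 in 1.18%. A match describes letters in this window and is no evidence of binding. In all, 6 members had a window, and the single windows of E2f1 and E2f6, as well as a further window each of E2f2 and E2f3, held no match. The E2f1 window lies within the gene as GENCODE annotates it, and the E2f2 window shown lies before the GENCODE start.

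**Figure D1:**
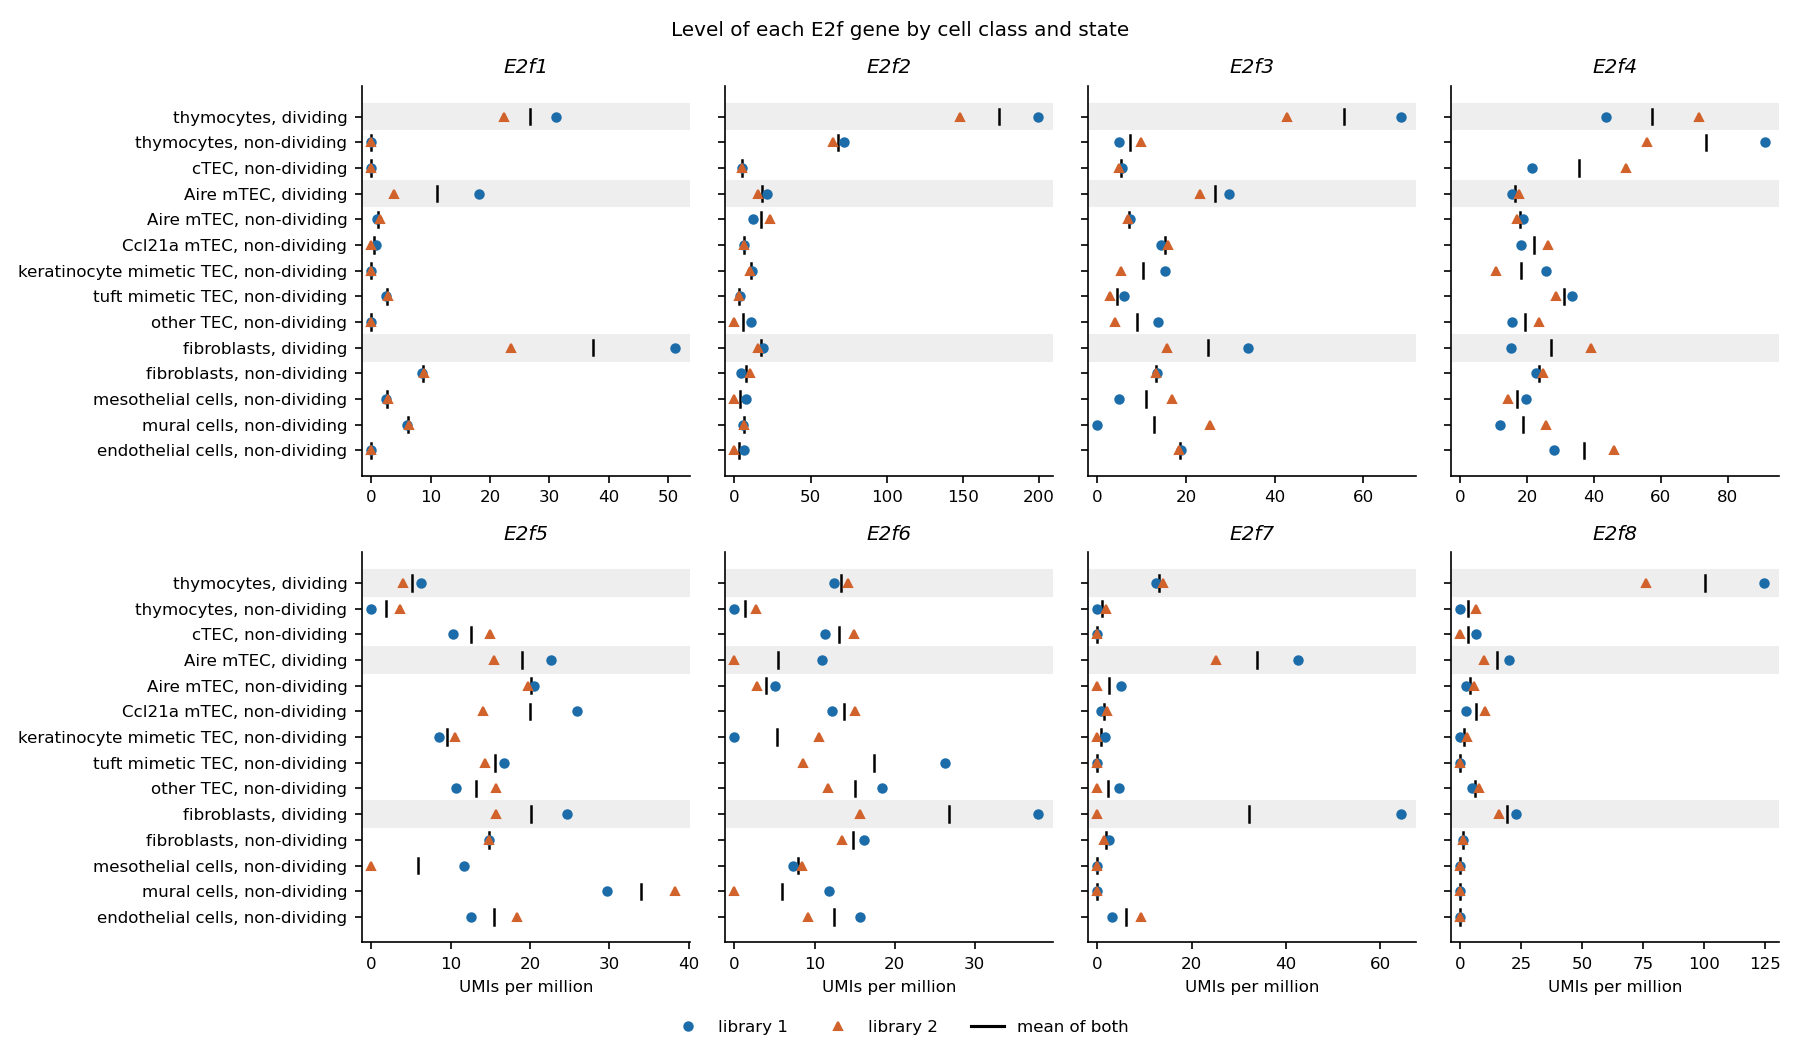
Level of each E2f gene, in UMIs per 1000000 UMIs (horizontal axes, with a scale of its own for each gene), in 14 groups of class and state (vertical axis). Circles are library 1, triangles library 2, black bars the mean of both, and grey bands the dividing groups. E2f2 and E2f8 stand highest in dividing thymocytes, E2f4 in thymocytes of either state, and E2f5 is lowest in thymocytes.

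In thymocytes, E2f1, E2f2, E2f3 and E2f8 were higher in dividing than in non-dividing cells. The test was edgeR's quasi-likelihood test on summed counts, with Benjamini-Hochberg adjustment over 12304 genes. It called 4 of the 8 members higher and 0 lower, and 9.61% of all genes in either direction (6.86% higher, 2.75% lower). The median log2 fold of the members was 2.78, also with E2f1 at its lower bound, against 0.00463 for all genes.

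E2f1, the founding activator, had 31.1 and 22.4 UMIs per 1000000 UMIs (CPM) in dividing thymocytes of libraries 1 and 2, against 0 in non-dividing thymocytes of both. Non-dividing thymocytes had no E2f1 UMI among 1321162 UMIs, so the groups did not overlap and the difference was at least 9.96-fold. That bound sets the level in dividing cells against a floor of 3 counts over both libraries. It rests mainly on library 2: with the floor taken per library, the difference was at least 2.16-fold in library 1 and at least 8.30-fold in library 2. The adjusted p was 0.00193. With the looser cell filter the fitted log2 fold was 2.81 (adjusted p 0.0297). E2f1 UMIs occurred in 12.5% and 9.25% of dividing thymocytes, against 0 of 87 and 0 of 426 non-dividing ones, which allows up to 3.45% and 0.704% of cells with a UMI and sets no limit on cells that express the gene. Median depths were 3585.5 and 1889 UMIs in dividing thymocytes, against 1621 and 1960.5 in non-dividing ones. With each cell thinned to 1000 UMIs, which kept every cell, the shares were 4.17% and 1.23% in dividing cells, against 0% and 0%. E2f1 UMIs were also absent from non-dividing cTEC, in 0 of 60 and 0 of 28 cells.

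E2f2, an activator with a known role in restraining T cell proliferation in the mouse, had 199 and 148 CPM in dividing thymocytes, against 72.0 and 64.7 in non-dividing thymocytes. Both libraries were higher in the dividing state, and the log2 fold was 1.5 (SE 0.44, adjusted p 0.0324). This call is close to the threshold. It was lost in 5 of 10 alternatives, where the adjusted p went up to 0.237. E2f2 was held by 54.2% and 33.0% of dividing thymocytes, against 14.9% and 13.4% of non-dividing ones, and after thinning by 29.2% and 11.2%, against 8.05% and 6.57%.

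E2f3, the third activator, had 68.5 and 42.9 CPM in dividing thymocytes, against 4.80 and 9.88 in non-dividing ones. The groups did not overlap, and the log2 fold was 2.66 (SE 0.58, adjusted p 0.00539). It was not called once thymocytes with RNA of epithelium or fibroblasts, and stromal cells with RNA of thymocytes, were left out (adjusted p 0.0767). E2f8, an atypical repressor, had 125 and 76.0 CPM in dividing thymocytes, against 0 and 6.29 in non-dividing ones. The groups did not overlap. The log2 fold was 4.37 (SE 0.75, adjusted p 0.00114), and by counts over both libraries the level was 14.6 times as high (95% counting interval 7.03 to 36.5). E2f8 RNA was found in 33.3% and 20.5% of dividing thymocytes, against 0% and 1.41% of non-dividing ones, and after thinning in 4.17% and 4.82%, against 0% and 0.235%.

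The other 4 members were not called in thymocytes. E2f7 had 12.5 and 13.9 CPM in dividing cells, against 0 and 1.80 in non-dividing ones (adjusted p 0.0997). E2f6, the Polycomb-linked repressor, had 12.5 and 14.2 in dividing cells, against 0 and 2.70 in non-dividing ones (adjusted p 0.0666). The values were higher in the dividing state of each library, but library 1 contributed 2 UMIs of each gene. Both passed with no low-count filter (adjusted p 0.0194 for E2f7 and 0.0221 for E2f6) and with the stricter dividing gate. E2f4, the main repressor of resting cells, had 43.6 and 71.3 CPM in dividing thymocytes, against 91.3 and 55.7 in non-dividing ones, so its direction differed between libraries. E2f5 stayed at or under 6.23 CPM in either state.

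In epithelium the comparison rests on Aire mTEC, since no other epithelial class had 20 dividing cells in both libraries. E2f1, E2f3 and E2f7 were called higher in dividing Aire mTEC, and 0 members lower. Over all genes 11.1% were called (4.36% higher, 6.76% lower). The median log2 fold was 1.18 for the members, against −0.23 for all genes.

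E2f7, known with E2f8 for closing the E2F programme in late S phase, had 42.7 and 25.1 CPM in dividing Aire mTEC, against 5.11 and 0 in non-dividing Aire mTEC. The groups did not overlap. The log2 fold was 3.46 (SE 0.88, adjusted p 0.0176), and by counts the level was 9.96 times as high (counting interval 6.14 to 16.8). In library 1, 27 of 57 dividing cells held E2f7, against 4 of 255 non-dividing ones, and in library 2 the 13 UMIs came from 2 of 23 dividing cells, against 0 of 123. Median depths were 27055 and 20294 UMIs in dividing cells, against 16594 and 8424 in non-dividing ones. After thinning to 1000 UMIs no cell of either state held E2f7, and after thinning to 2000 UMIs the shares were 5.36% and 4.35% in dividing cells, against 0.405% and 0%. The call was lost under a stricter marker gate (adjusted p 0.0592) and with DESeq2 (0.143).

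E2f1 had 18.1 and 3.87 CPM in dividing Aire mTEC, against 0.930 and 1.41 in non-dividing ones. The log2 fold was 3.29 (SE 0.77, adjusted p 0.0115), and the call was lost under the stricter marker gate (adjusted p 0.0920). The value rests on library 1, where the level was 19.5 times as high (counting interval 6.81 to 76.4). In library 2 it was 2.75 times as high with an interval of 0.199 to 37.9, from 2 UMIs in 1 dividing cell and 2 UMIs in non-dividing cells. E2f3 had 29.7 and 23.2 CPM in dividing Aire mTEC, against 7.44 and 7.03 in non-dividing ones, with no overlap. Its log2 fold was 1.75 (SE 0.50, adjusted p 0.0259), and the call was kept in 9 of 9 alternatives. E2f3 UMIs occurred in 45.6% and 43.5% of dividing cells, against 10.6% and 7.32% of non-dividing ones. After thinning to 2000 UMIs they occurred in 5.36% and 8.70%, against 2.02% and 1.98%, and after thinning to 1000 UMIs in 5.26% and 0%, against 0.784% and 0.813%, so library 2 changed direction. The dividing shares after thinning rest on at most 3 cells each.

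E2f8 had 20.0 and 9.67 CPM in dividing Aire mTEC, against 2.32 and 5.63 in non-dividing ones. Its log2 fold of 2.11 (SE 0.67) had an adjusted p of 0.0506 and so was not called, whereas 6 of 9 alternatives called it. E2f2 had 21.3 and 15.5 CPM in dividing cells, against 12.3 and 23.2 in non-dividing ones, with opposite directions in the libraries. E2f4 had 15.5 and 17.4 against 18.8 and 16.9, and E2f5 22.6 and 15.5 against 20.5 and 19.7, in dividing against non-dividing cells. For these 3 genes the states overlapped. E2f6 had 11 and 0 CPM in dividing cells, against 5.11 and 2.81.

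Summed thymocyte markers (17 genes) stood at 111.2 and 371 CPM in dividing Aire mTEC, against 183 and 343 in non-dividing ones, and at 10861 to 16806 in thymocytes. Of the 17, 0 and 1 were at 0 in dividing Aire mTEC. The 10 myeloid markers summed to 617 and 400 in dividing Aire mTEC, against 1901 and 1590.5 in non-dividing ones. The part of this RNA in the E2f values was not tested.

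In fibroblasts, E2f7 and E2f8 were called higher in dividing cells and 0 members lower, where 2.41% of all genes were called (2.23% higher, 0.187% lower). The median log2 fold was 1.2 for the members, against −0.11 for all genes. E2f8 had 22.7 and 15.7 CPM in dividing fibroblasts, against 1.02 and 1.2 in non-dividing ones. The groups did not overlap, and the log2 fold was 4.14 (SE 0.80, adjusted p 0.00441), although library 2 contributed 2 UMIs from 1 dividing cell. The adjusted p was 0.960 in the alternative that left out stromal cells with more than 1 thymocyte-marker UMI and kept 11 and 16 dividing fibroblasts.

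E2f7 had 64.4 and 0 CPM in dividing fibroblasts, against 2.43 and 1.38 in non-dividing ones. Library 1 was higher in the dividing state, with E2f7 in 51.5% of its dividing cells against 1.88% of non-dividing ones (9.09% against 0.182% after thinning to 1000 UMIs), and library 2 had no E2f7 UMI there. The call (log2 fold 4.10, SE 0.91, adjusted p 0.0152; 0.285 with DESeq2) thus rests on library 1, and within library 2 alone the fitted log2 fold was −3.89. Library 2 had 127525 UMIs in its 44 dividing fibroblasts, so 0 UMIs allow a level of up to 23.5 CPM. Its dividing fibroblasts had a median of 2193 UMIs, against 14194 in library 1. Summed thymocyte markers were 127 and 706 CPM in dividing fibroblasts, against 199 and 400 in non-dividing ones.

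E2f1 had 51.1 and 23.5 CPM in dividing fibroblasts, against 8.51 and 8.94 in non-dividing ones. Both libraries were higher in the dividing state, but the adjusted p was 0.120. E2f3 had 34.1 and 15.7 in dividing fibroblasts, against 13.4 and 13.2, and E2f6 37.9 and 15.7, against 16.1 and 13.4 in non-dividing ones. Neither passed the threshold (adjusted p 0.552 for E2f3 and 0.743 for E2f6). E2f2 had 18.9 and 15.7 in dividing fibroblasts, against 4.35 and 10.5 (adjusted p 0.494). E2f4 had 15.1 and 39.2 in dividing fibroblasts, against 22.5 and 24.8, with overlap (adjusted p 0.978). E2f5 had 24.6 and 15.7, against 14.8 and 14.8 (adjusted p 0.891). In library 2, each of E2f2, E2f3, E2f5, E2f6 and E2f8 rests on 2 UMIs in dividing fibroblasts.

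**Figure D2:**
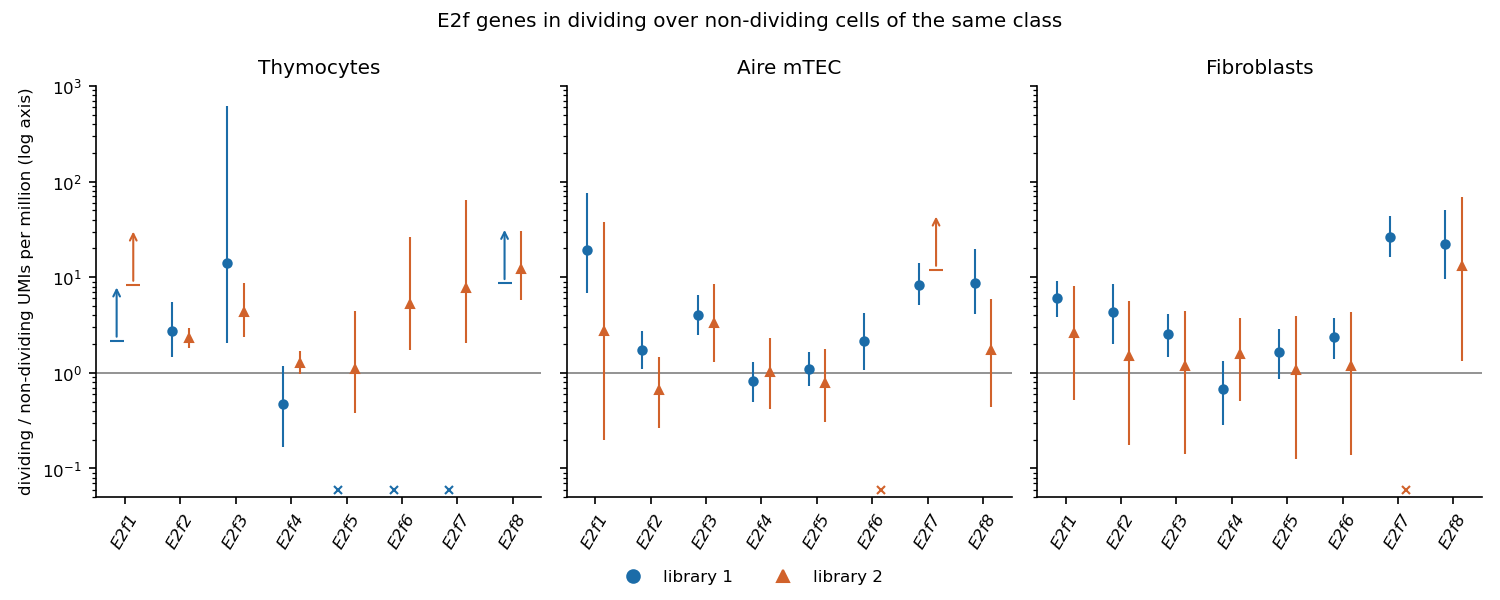
Level of each E2f gene in dividing over non-dividing cells of the same class, as a ratio of UMIs per 1000000 on a log axis, for thymocytes, Aire mTEC and fibroblasts. Circles are library 1 and triangles library 2 with exact 95% counting intervals, arrows start at a lower bound against 0 UMIs, and crosses mark pairs for which no ratio is given. The lower bounds leave out the counting error of the dividing level. E2f4 and E2f5 lie between 0.478 and 1.66 wherever a ratio is given, and E2f8 in fibroblasts lies at 22.2 and 13.0.

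Whether division moved the members by different amounts in epithelium and thymocytes was tested with an interaction term. It called 0 of 8 members and 0% of all genes with edgeR, and 3 members at an unadjusted p under 0.05. DESeq2 called 0 members as well, and 256 of 12304 genes. The log2 fold of E2f2 was 1.41 lower in Aire mTEC than in thymocytes (SE 0.65, adjusted p 0.463), and that of E2f8 2.26 lower (SE 1.06, adjusted p 0.475).

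Dividing thymocytes and dividing Aire mTEC were also set against each other directly, a comparison added after the E2f values had been seen. It called 3 members higher and 1 lower in dividing thymocytes, where 32.9% of all genes were called (13.1% higher, 19.8% lower). E2f2 had 199 and 148 CPM in dividing thymocytes, against 21.3 and 15.5 in dividing Aire mTEC (log2 fold 3.12, SE 0.47, adjusted p 2.23e-05). E2f8 had 125 and 76.0, against 20.0 and 9.67 (log2 fold 2.48, SE 0.59, adjusted p 0.00327). In both cases the classes did not overlap.

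The repressors E2f4 and E2f5 went opposite ways in that comparison. E2f4 had 43.6 and 71.3 CPM in dividing thymocytes, against 15.5 and 17.4 in dividing Aire mTEC (log2 fold 2.05, SE 0.42, adjusted p 0.000683). E2f5 had 6.23 and 3.99, against 22.6 and 15.5 (log2 fold −1.89, SE 0.56, adjusted p 0.0119). These 4 calls were kept in 9 of 9 alternatives each. E2f7 had 12.5 and 13.9 in dividing thymocytes, against 42.7 and 25.1 in dividing Aire mTEC. The order was the same in both libraries, but the difference was not called (log2 fold −0.81, SE 0.83, adjusted p 0.5). E2f1, E2f3 and E2f6 were not called either, with adjusted p of 0.139, 0.115 and 0.182.

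Non-dividing thymocytes were also compared with non-dividing epithelium. The comparison set thymocytes against the mean of 6 epithelial gates (Aire mTEC, Ccl21a mTEC, cortical cTEC, tuft-type, keratinocyte-type and other TEC). It called E2f2 and E2f4 higher and E2f5 lower in thymocytes, where 41.9% of all genes were called (18.5% higher, 23.4% lower). E2f2 had 72.0 and 64.7 CPM in non-dividing thymocytes, against 9.0 and 12.5 in the pooled non-dividing epithelium (log2 fold 3.05, SE 0.39, adjusted p 2.19e-06). E2f4 had 91.3 and 55.7, against 20.2 and 22.2 (log2 fold 1.44, SE 0.32, adjusted p 0.000857). Neither gene overlapped between the classes.

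E2f5 had 0 and 3.59 CPM in non-dividing thymocytes, against 19.3 and 16.1 in non-dividing epithelium (log2 fold −2.21, SE 0.66, adjusted p 0.00944). By counts it was 6.09 times as high in the epithelium (counting interval 2.35 to 22.5). With the looser cell filter its log2 fold was −0.81 with an adjusted p of 0.213, and with the stricter one −1.88 (0.0736), so this call depends on which cells are kept. E2f1, at 0 in non-dividing thymocytes and not called, was called higher there with the looser filter (log2 fold 3.78, adjusted p 0.00921). E2f3, E2f6, E2f7 and E2f8 were not called, with adjusted p from 0.0961 to 1. Summed markers of epithelium (8 genes) were 110 and 101 CPM in non-dividing thymocytes, against 4295 and 4492 in non-dividing Aire mTEC.

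Resting stromal lineages differed in E2f1. It had 0.783 and 0.832 CPM in pooled non-dividing epithelium, against 8.51 and 8.94 in non-dividing fibroblasts. The groups did not overlap, and by counts the epithelial level was 0.0922 of that in fibroblasts (counting interval 0.0453 to 0.169). E2f1 was the only member called, lower in epithelium, with an adjusted p of 6.92e-06, where 41.9% of all genes were called (17.6% higher, 24.4% lower). Its fitted log2 fold was −5.08 (SE 0.68). The fit averages the epithelial classes on the log scale, and E2f1 was at 0 in cTEC, keratinocyte-type and other TEC of both libraries. The call was kept in 9 of 9 alternatives that tested it, and without cells holding RNA of another lineage E2f1 was not tested.

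The E2f1 level in fibroblasts was about as high in cells with no trace of division genes. In fibroblasts without a UMI of any of the 28 gate genes, 504 cells of library 1 and 240 of library 2, E2f1 stood at 8.35 and 7.30 CPM (exact 95% intervals 5.71 to 11.8 and 3.34 to 13.9). Aire mTEC without such a UMI, 39 and 32 cells, had 0 E2f1 UMIs, which allows up to 11.2 and 29.9 CPM and so cannot show a difference. E2f1 UMIs were found in 7.45% and 5.62% of non-dividing fibroblasts, against 0 of 87 and 0 of 426 non-dividing thymocytes. Median depths were 8905 and 6806 UMIs in these fibroblasts, and after thinning to 1000 UMIs their shares were 0.666% and 0.717%.

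Counts of E2f1 in the smaller gates were too low to order them. It had 5.93 and 6.37 CPM in mural cells and 2.45 and 2.83 in mesothelial cells, from 2 and 5 UMIs in all, and 2.39 and 2.86 in tuft-type cells from 3 UMIs. Endothelial cells, cTEC, keratinocyte-type and other TEC had 0, which in endothelial cells allows up to 9.39 and 27.5 CPM. The 0 UMIs allow up to 2.81 and 14.9 in cTEC, 5.10 and 7.92 in keratinocyte-type and 4.59 and 11.7 in other TEC. In library 2 the limits of cTEC and other TEC lie above the level in non-dividing fibroblasts. The remaining 7 members did not pass between non-dividing epithelium and fibroblasts. E2f3 came closest, with 9.88 and 8.60 CPM in epithelium, against 13.4 and 13.2 in fibroblasts (log2 fold −0.83, SE 0.34, adjusted p 0.0550). E2f8 had 2.64 and 5.83 in epithelium, against 1.02 and 1.2 in fibroblasts, with no overlap but an adjusted p of 0.992. The fit averages the epithelial classes on the log scale, and E2f8 was at 0 in tuft-type cells of both libraries.

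Within resting epithelium, no member was called between cTEC and mTEC. Of 8 members, edgeR called 0, where it called 11% of all genes (6.27% higher, 4.77% lower), and 0 had an unadjusted p under 0.05. With DESeq2, 0 members and 1553 of 12304 genes were called. The median log2 fold of the members was −1.03, against −0.13 for all genes. The cTEC gates held 60 and 28 cells. E2f2 had 4.69 and 4.97 CPM in cTEC, against 9.89 and 16.1 in both mTEC gates together, and by counts the cTEC level was 0.412 of that in mTEC (counting interval 0.148 to 0.927). E2f3 had 5.62 and 4.97 in cTEC, against 10.2 and 10.7 in mTEC. The libraries did not overlap for either gene, but neither was called by edgeR (adjusted p 0.333 and 0.347). The library 2 values in cTEC are 1 UMI each. By gate, E2f2 had 12.3 and 23.2 in Aire mTEC but 6.12 and 6.02 in Ccl21a mTEC, nearer to cTEC. For E2f3 the gates stood the other way, with 14.4 and 16.1 in Ccl21a mTEC and 7.44 and 7.03 in Aire mTEC. E2f4 had 21.6 and 49.7 CPM in cTEC, against 18.8 and 16.9 in Aire mTEC and 18.0 and 26.1 in Ccl21a mTEC. E2f5 had 10.3 and 14.9 in cTEC, against 22.6 and 17.4 in both mTEC gates together, again without overlap (log2 fold −1.01, SE 0.50, adjusted p 0.221). By counts the cTEC level of E2f5 was 0.519 of that in mTEC (counting interval 0.279 to 0.892). In library 2 alone it was 0.859 (counting interval 0.170 to 2.69), from 3 UMIs in cTEC. By gate, E2f5 had 20.5 and 19.7 in Aire mTEC, and 25.9 and 14.0 in Ccl21a mTEC, which overlapped with cTEC.

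Foxn1, whose promoter lost the E2F sites, was read in the same cells. It had 310 and 169 CPM in non-dividing cTEC, against 126 and 163 in Aire mTEC and 36.4 and 74.2 in Ccl21a mTEC (log2 fold against both mTEC gates 1.36, SE 0.36, adjusted p 0.0173). In library 2 cTEC were close to Aire mTEC, and the log2 fold was 2.11 within library 1 and 0.42 within library 2. In dividing Aire mTEC it had 91.1 and 104, against 126 and 163 in non-dividing ones (log2 fold −0.71, SE 0.41, adjusted p 0.282). The dividing values were lower in both libraries, but the difference was not called. A 3' count does not show the deletion itself.

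The order of levels differed by member. For E2f1 the mean was highest in dividing fibroblasts, 37.3 ± 19.5 CPM (SD, n = 2 libraries), followed by dividing thymocytes, 26.8 ± 6.19, and these neighbours overlapped. For E2f2, dividing thymocytes at 174 ± 36.1 and non-dividing thymocytes at 68.4 ± 5.20 came first and did not overlap with each other or with the next group. For E2f3, dividing thymocytes led at 55.7 ± 18.1, apart from dividing Aire mTEC at 26.5 ± 4.62. Dividing Aire mTEC and dividing fibroblasts overlapped.

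E2f4 was led by non-dividing thymocytes at 73.5 ± 25.1 and dividing thymocytes at 57.5 ± 19.6, which overlapped. Each later neighbour in its order overlapped too. E2f5 was highest in mural cells, 34.0 ± 6.07, which did not overlap with the next group, dividing fibroblasts at 20.1 ± 6.32. The mural value rests on 11 UMIs. E2f6 had overlapping neighbours from dividing fibroblasts at 26.8 ± 15.7 down to endothelial cells at 12.4 ± 4.58. E2f7 was led by dividing Aire mTEC at 33.9 ± 12.4 and dividing fibroblasts at 32.2 ± 45.5, and E2f8 by dividing thymocytes at 100.3 ± 34.3, apart from every other group.

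Phases within the dividing cells could not be fitted, because no class had 20 S-gated and 20 G2/M-gated cells in both libraries. The values of the largest groups are given without a test. In library 2, 255 S-gated thymocytes had 41.3 CPM of E2f1 (exact interval 31.4 to 53.3), against 16.2 (12.6 to 20.4) in 804 G2/M-gated thymocytes. E2f2 had 110 (93.3 to 128) in S-gated cells, against 161 (149 to 173) in G2/M-gated cells. E2f8 had 50.4 (39.4 to 63.4), against 84.5 (76.0 to 93.6).

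These intervals cover counting error within 1 library and not the spread between libraries. In library 1, with 12 cells of each, E2f2 had 84.3 (30.9 to 183) in S-gated cells, against 291 (190 to 426) in G2/M-gated ones, while E2f8 had 140.4 (67.3 to 258) in S-gated cells, against 111.9 (53.7 to 206) in G2/M-gated ones, the opposite order to library 2. In library 1, 22 S-gated Aire mTEC had 43.6 CPM of E2f1 (27.7 to 65.5), against 4.90 (1.59 to 11.4) in 35 G2/M-gated ones. E2f3 had 55.0 (36.8 to 79.0) in S-gated Aire mTEC, against 16.7 (9.71 to 26.7) in G2/M-gated ones. E2f7 had 41.7 (26.2 to 63.2) in S-gated cells, against 43.1 (31.3 to 57.9) in G2/M-gated ones, and in library 2 its 13 UMIs all came from 18 G2/M-gated cells. In fibroblasts of library 1, E2f1 had 100.5 (62.2 to 154) in 13 S-gated cells, against 18.8 (6.90 to 40.9) in 20 G2/M-gated ones.

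**Figure D3:**
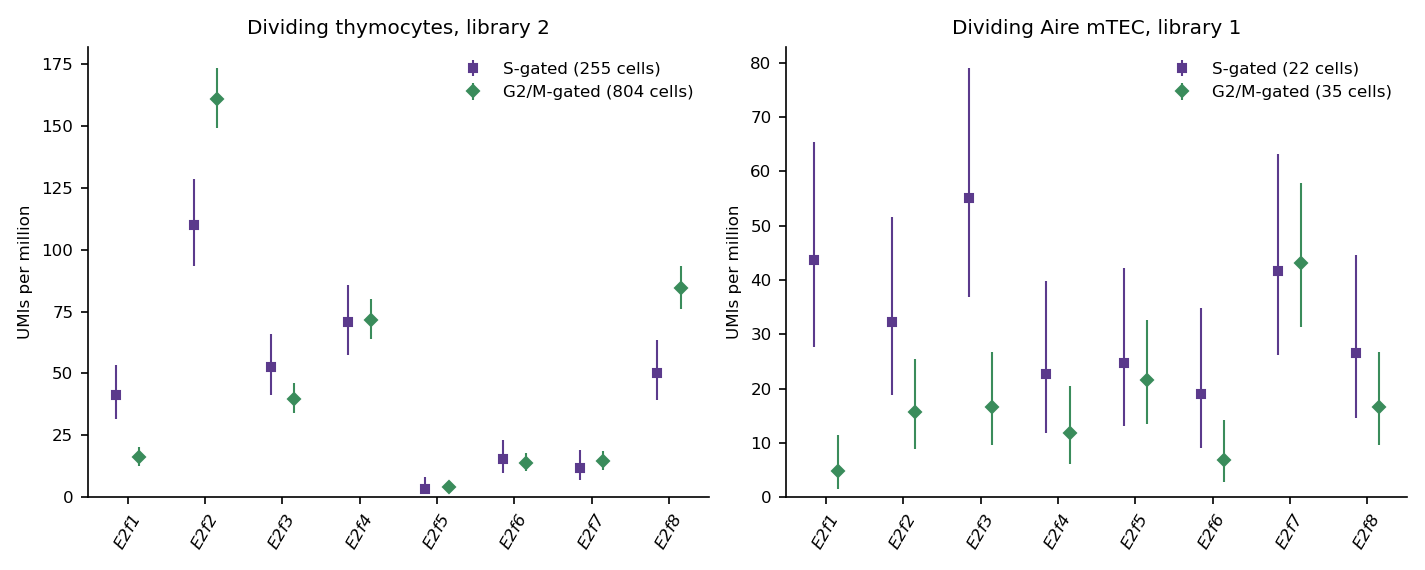
Level of each E2f gene, in UMIs per 1000000, in S-gated (squares) and G2/M-gated (diamonds) dividing cells of thymocytes in library 2 and Aire mTEC in library 1. Bars are exact 95% Poisson intervals and cover counting error only. E2f1 stands higher in S-gated cells in both panels.

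Genes that E2F proteins are known to activate were followed with a list of 28 genes that the dividing gate did not use, of which 27 could be tested. The gate itself used S-phase and G2/M genes, and E2F proteins bind near genes of that kind. Higher values of the list in cells chosen this way follow in part from the gate. They are no independent measure of E2F activity. The share of all genes called higher was 6.86% in thymocytes, 4.36% in Aire mTEC and 2.23% in fibroblasts. In thymocytes 22 of 27 were higher in dividing cells and 0 lower, with a median log2 fold of 3.09. Cdc45, a subunit of the replicative helicase, had 31.1 and 53.4 CPM in dividing thymocytes, against 0 and 0.899 in non-dividing ones (log2 fold 6.06, SE 1.16, adjusted p 0.00272). Tk1, thymidine kinase, had 43.6 and 75.0, against 4.80 and 1.80 (log2 fold 5.01, SE 0.89, adjusted p 0.00108). Chek1, the checkpoint kinase, had 18.7 and 52.1, against 0 and 1.80 (log2 fold 5.0, SE 0.91, adjusted p 0.00196).

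In Aire mTEC 26 of 27 were higher in dividing cells and 0 lower, with a median of 2.94. Ccne2, which encodes cyclin E2, had 78.2 and 59.9 CPM in dividing Aire mTEC, against 2.56 and 2.11 in non-dividing ones (log2 fold 4.69, SE 0.67, adjusted p 9.51e-05). Mcm3, a subunit of the helicase core, had 97.6 and 87.0, against 3.95 and 12.7 (log2 fold 3.60, SE 0.49, adjusted p 6.82e-05). The exception was Cdc25a, a phosphatase of the S-phase entry, at a log2 fold of 0.95 (adjusted p 0.152).

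In fibroblasts 19 of 27 were higher and 0 lower, with a median of 2.99. Ccne2 had 111.7 and 0 CPM in dividing fibroblasts, against 1.47 and 1.89 in non-dividing ones (log2 fold 5.39, SE 0.66, adjusted p 9.28e-06). Mcm10 had 34.1 and 0, against 0.576 and 0.344 (log2 fold 5.29, SE 0.92, adjusted p 0.00130). As for E2f7, library 2 held none of either gene in dividing fibroblasts. Ung, the uracil glycosylase of DNA repair, had 32.2 and 7.84, against 0.959 and 0.344 (log2 fold 4.83, SE 0.79, adjusted p 0.000569).

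**Figure D4:**
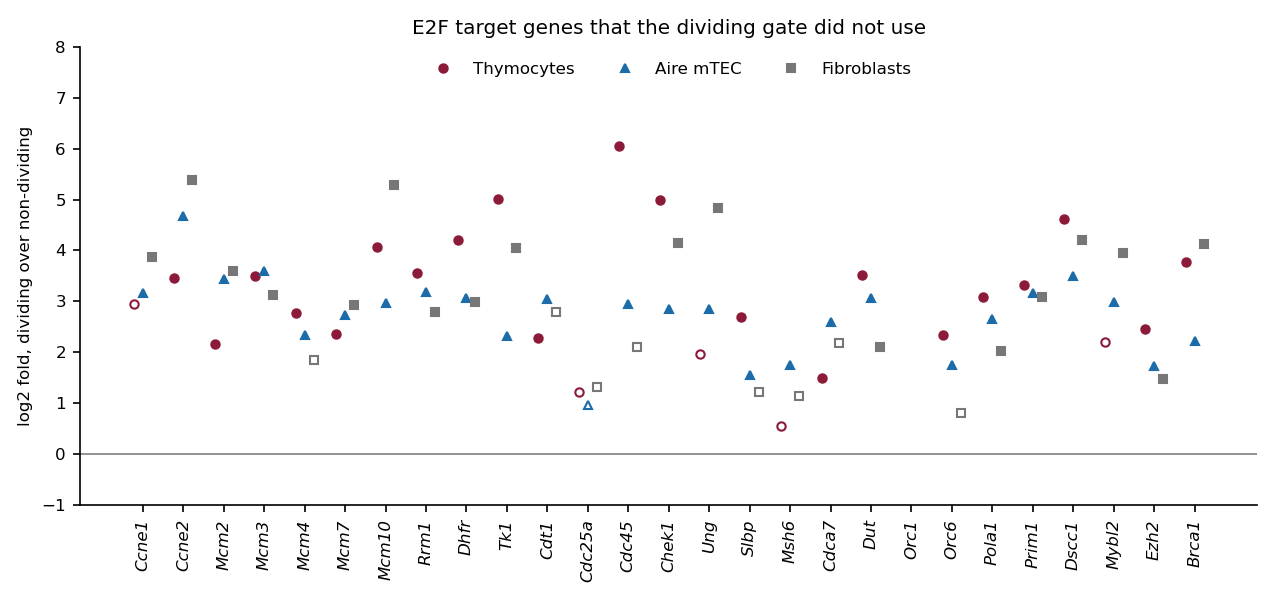
Log2 fold in dividing over non-dividing cells (vertical axis) of 27 E2F target genes (horizontal axis) in thymocytes (circles), Aire mTEC (triangles) and fibroblasts (squares). Filled symbols passed an adjusted p of 0.05 and open symbols did not. Of the 26 genes shown with a test, 21, 25 and 18 passed in the 3 classes, and Orc1 was not tested.

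The proteins that E2F factors work with were followed with further lists. Of 5 genes for pocket proteins and DP partners, 1 was higher in dividing thymocytes, 0 in dividing Aire mTEC and 1 in dividing fibroblasts, and 0 were lower, where 6.86%, 4.36% and 2.23% of all genes were called higher. Tfdp1, the main DP partner, had 99.6 and 96.8 CPM in dividing thymocytes, against 33.6 and 27.0 in non-dividing ones (log2 fold 1.98, SE 0.43, adjusted p 0.00508). Rbl1, which encodes p107, had 70.1 and 0 in dividing fibroblasts, against 7.55 and 7.57 in non-dividing ones (log2 fold 2.53, SE 0.63, adjusted p 0.0269), so this call rests on library 1. Of 8 tested genes of the MuvB core and the E2F6 complex, edgeR called 0 in the 3 comparisons of state. Lin9 of the MuvB core came closest, at a log2 fold of 1.63 in dividing Aire mTEC (SE 0.53, adjusted p 0.0520).

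For each member, the genes with the most similar level over the 28 sums of class, state and library were listed by Pearson's r, as a description. The sums share libraries and depths, and low genes are noisy in them. Nearest to E2f1 was Ccnb2 (r 0.81), nearest to E2f3 was Pole (0.78), nearest to E2f7 was Cenpk (0.88) and nearest to E2f8 was Dlgap5 (0.88). Those of E2f2 were Hist1h2bj, Fermt3 and Stap1, each at 0.83. For E2f4 they were Tapt1 (0.89), Rmnd5a (0.82) and Ptprc (0.81), which encodes CD45. For E2f5 they were Pcbp4 (0.87), Tmem94 (0.84) and Srpr (0.79), and for E2f6 Ubqln2 (0.73), Sdk1 (0.72) and Ubxn2b (0.69).

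The members lie on 8 chromosomes, per GENCODE on GRCm38. E2f1 is on chromosome 2 at 154559407 to 154569892 and E2f2 on chromosome 4 at 136172394 to 136196057. E2f3 is on chromosome 13 at 29906575 to 29986063 and E2f4 on chromosome 8 at 105297663 to 105305370. E2f5 is on chromosome 3 at 14578641 to 14606309 and E2f6 on chromosome 12 at 16810963 to 16839742. E2f7 is on chromosome 10 at 110745439 to 110787384 and E2f8 on chromosome 7 at 48866429 to 48881596. Exons of E2f5, E2f7 and E2f8 overlap those of an antisense gene, and the strand setting of the count is not given in the sources used here.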

How the data were processed

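Droplet 3' single-cell libraries of 2 E2F_M11 samples were analysed. Per the file headers, the matrices the authors deposited hold unnormalised UMI counts by gene and cell barcode. Cell Ranger 7, Seurat 4 and mm10 are named in the submitters' processing notes, whereas the matrix headers name Cell Ranger 6.0.0. No source used here states the authors' barcode filter.

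Kept cells had at least 500 genes, at least 1000 UMIs and no more than 10% of UMIs from mitochondrial genes, and were gated by shares of marker UMIs. Members, lists and tests were chosen with earlier results of these data known. Gate thresholds were set over several rounds after marker distributions and cell numbers had been seen: the S-phase and G2/M gates were merged, and the marker minimum and the Aire gate lowered, because dividing thymocytes, dividing Aire mTEC and cTEC fell short of 20 cells in a library. E2f values had not been looked at in these rounds. Doublets were not called. Cells with markers of several lineages (296 and 4354) were left out, apart from the exempt pairs of lineages, as were cells without a gate (263 and 549). Raw counts were summed per library, class and state where each library had 20 cells (5 in alternatives, also set afterwards). The 28 sums, of 109088 to 15633670 UMIs, entered one edgeR 4.0.16 quasi-likelihood fit (R 4.3.3; TMM, filterByExpr, 13 residual degrees of freedom, adjusted p at or under 0.05), checked on simulated counts. Library was a block, because classes of a library share one cell suspension. In the simulated counts of dividing and non-dividing Aire mTEC, 14 of 100 genes changed by a log2 fold of 1 were called. Of 100 changed by a log2 fold of 2, 58 were called, with 1 false call among 12304 genes. A member that was not called may thus still differ by such a fold. SE was derived from the log2 fold and the F statistic. Dividing thymocytes against dividing Aire mTEC was added after the values were seen.

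Levels are UMIs per 1000000 (CPM). Groups are said not to overlap where every library of a group lies above every library of the other. With 2 libraries per group this arises readily by chance, and its share over all genes is not given. Intervals are exact 95% Poisson, conditional binomial or Clopper-Pearson, and cover counting error only, as does the floor of 3 counts. Shares were also taken after thinning to 1000 and 2000 UMIs. All members and, in epithelium, Foxn1 are named, with up to 3 called genes of the largest fold from each pathway list and the 3 most correlated genes per member; 1 target gene that this rule names is not reported here and not plotted, but stays in the counts; Cdc25a and, in comparisons of state, Lin9 were named after their values were seen. The planned comparison of S-gated with G2/M-gated cells could not be fitted. Alternatives changed the filter, scaling, test, block, gates and libraries, with DESeq2 1.42.0 among them. The alternative without cells holding RNA of another lineage dropped stromal cells with more than 1 thymocyte-marker UMI. It also dropped thymocytes with more than 1 UMI of epithelial and fibroblast markers together. No other pair of lineages was checked, and cells with many UMIs are more readily dropped by such a count.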

Additional observations from a re-analysis of the deposited data

Results flagged for a closer look

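Cells set aside for markers of several lineages entered no comparison, yet dividing and non-dividing ones held E2f RNA above the limit that 0 counts allow. In library 1, 15 such dividing cells had 262 CPM of the 8 E2f genes together, where 3 counts would be 9.37. In library 2, 1753 such cells had 201 CPM, where 3 counts would be 0.652. E2f2 led in both, at 81.2 and 73.4 CPM, against 199 and 148 in dividing thymocytes and 21.3 and 15.5 in dividing Aire mTEC. In non-dividing mixed-lineage cells, E2f2 had 8.09 and 28.4 CPM and E2f4 22.6 and 23.2, where 3 counts would be 1.01 and 0.710. Being above that limit is therefore not particular to the dividing ones. What the mixed-lineage cells are was not tested.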

How the results depend on the processing

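Of 583 values of single members with a test under an alternative, 554 stayed on their side of the threshold, 13 lost their call, 15 gained a call and 1 reversed. A change of direction was counted only where the main fit or the alternative made a call. The reversed value was E2f1 in non-dividing thymocytes against epithelium, at a log2 fold of 3.78 (edgeR adjusted p 0.00921) with the looser cell filter. In the main fit its log2 fold was −1.74 with an SE of 16954, from 0 UMIs in the thymocytes, so that direction carries no weight. The looser cell filter called 5 members in this comparison, against 3, where it called 5620 of 12303 genes. Leaving out cells with RNA of another lineage called 1 member in that comparison (2181 of 6102 genes) and 1 in thymocytes by state (305 genes). It called 0 in fibroblasts by state (63 genes) and 0 between non-dividing epithelium and fibroblasts (1823 genes). It left 6102 genes tested and no dividing Aire mTEC in library 2, so comparisons with that group have no value. DESeq2 called 1 member in fibroblasts by state, where it called 349 of 12304 genes. Between non-dividing epithelium and fibroblasts 2 members were called with the stricter marker gate, the stricter dividing gate, or stromal cells under 5 thymocyte-marker UMIs per 10000, a setting added after seeing the data. Over all genes these settings called 4793 of 11900, 4955 of 11830 and 4750 of 12267. The causes were not tested.

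Without a library no residual degrees of freedom remain, so only values are given. A move was scaled by the SD of the 2 single-library values themselves, which grows with their gap. The counts of moves are thus no measure of stability. Of 128, 81 moved by less than 1 SD, 46 by more, and 1 that the main fit called reversed. That was E2f7, dividing vs non-dividing fibroblasts, at −3.89 without library 1, where library 2 has 0 UMIs in dividing cells, and 4.44 without library 2. Changes of direction in values not called were not counted as reversed. For E2f6 in epithelium by state, the log2 fold was 0.61 in the main fit and −4.88 without library 1. Without the replicate block the counts of members called were the same in the 8 comparisons (3 in epithelium, 4 in thymocytes, 2 in fibroblasts and 0 for the interaction by state, 4 between dividing thymocytes and Aire mTEC, and 1, 3 and 0 among non-dividing classes). Of 12304 genes it called 1221, 1073, 291, 0, 4014, 4997, 5124 and 1238, in that order. Over all genes, the stricter cell filter called 840 in epithelium, against 1368, and the stricter dividing gate 590 in fibroblasts, against 297. Leaving out cells with other RNA called 305 in thymocytes, against 1182, 63 in fibroblasts (against 297), 1823 in epithelium over fibroblasts (against 5161), 2181 in thymocytes over epithelium (against 5157) and 422 in cTEC over mTEC (against 1359). The interaction called 0, but 89 with no low-count filter, 3 with RLE factors, 1 each with the stricter marker gate and the added setting and 256 with DESeq2. RLE factors moved the median log2 fold of all genes in thymocytes by state to −0.15, against 0.00463. Of 288 shares of cells, 237 stayed within their interval. The 33 and 44 dividing fibroblasts and 23 dividing Aire mTEC of library 2 limit what can be seen of low members.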

Other observations

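Genes for partners of the E2F proteins were also compared between resting classes. Of the 5 pocket protein and DP genes, 3 were called between non-dividing epithelium and fibroblasts and 2 between non-dividing thymocytes and epithelium, where 41.9% of all genes were called in each, so these shares say nothing particular to the list. Between cTEC and mTEC 1 of 5 was called, where 11% of all genes were. Rb1, the retinoblastoma gene, had 63.7 and 61.6 CPM in pooled non-dividing epithelium, against 22.2 and 20.3 in non-dividing fibroblasts (log2 fold 1.47, SE 0.23, edgeR adjusted p 1.09e-05). Rbl2, which encodes p130, went the other way, with 25.5 and 22.2 in epithelium, against 40.2 and 43.0 in fibroblasts (log2 fold −0.89, SE 0.20, adjusted p 0.000789). In non-dividing thymocytes Rbl1, which encodes p107, had 38.4 and 30.5, against 8.41 and 6.66 in epithelium (log2 fold 2.08, SE 0.54, adjusted p 0.00382), and Rbl2 had 91.3 and 70.1, against 25.5 and 22.2 in epithelium (log2 fold 1.52, SE 0.24, adjusted p 2.45e-05).

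Tfdp2, a DP partner, had 236 and 169 CPM in non-dividing cTEC, against 55.9 and 55.4 in both mTEC gates together (log2 fold 1.76, SE 0.27, adjusted p 0.000144). Lin9, of the MuvB core, had 0 in cTEC of both libraries, against 6.22 and 6.20 in mTEC (adjusted p 0.0152). In library 2 the 0 UMIs allow up to 14.9 CPM, above the mTEC level, so the call rests on library 1, where they allow up to 2.81. Lin9 had 43.2 and 22.5 in non-dividing thymocytes, against 5.48 and 4.99 in epithelium (log2 fold 3.43, SE 0.53, adjusted p 2.46e-05).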
